A study of Arabidopsis thaliana with 12 samples.

Results

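The group described here is made up of 10 genes of stress and defence, each read by 1 probe set, of 22746 probe sets on the array that are not controls. The genes are AT2G41730, ZCF37, AT1G78410, AT4G37290, AT1G19020, AT2G23270, AT3G28580, AT1G24140, SAL2 and AT1G51850. They were picked by name from earlier results of these arrays, for a higher mean signal in seedlings of the Arabidopsis thaliana mutant rop10-1 than in the wild type Ws, and were compared in both treatments and within each replicate number. The genotype values of these 10 genes are therefore a description without a test. For them, tests are given only for contrasts that did not choose them, namely abscisic acid (ABA) against mock averaged over both genotypes, and differences between replicate numbers.

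The study read RNA of whole seedlings on 12 Affymetrix ATH1 arrays, on which a set of short probes reports each gene as 1 signal. Ws mock and rop10-1 mock seedlings received the solvent DMSO for 4 hours. Ws ABA and rop10-1 ABA seedlings received 1 µM ABA, a hormone that plants make when short of water, dissolved in DMSO. All 4 groups had grown for 7 days in shaken liquid medium with sucrose, and each holds 3 arrays, described as biological replicates, so the small number of arrays limits the precision. The mutation lies in ROP10, which encodes a small GTPase and to which no probe set could be assigned with the probe table used here. The light-harvesting gene LHCB4.1, a marker of green tissue, had a signal of 11082 to 14595. The root hair gene EXPA7 had 93.4 to 177, below the median of all probe sets on every array, so root RNA is not shown by it. None of the 6 organ and cell type markers tested passed the test between the genotypes (limma, averaged over treatments), and none had an unadjusted p under 0.05. In whole seedlings, a lower signal from fewer expressing cells and one from less RNA per cell cannot be told apart.

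Plants answer microbes, wounding, oxidants and failing mitochondria with partly shared gene programmes. Receptor kinases at the cell surface perceive microbial patterns and the plant's own signal peptides, and secreted peptide precursors amplify the signal. WRKY transcription factors and the VQ motif proteins that bind them act in the nucleus. Reactive oxygen from chloroplasts and mitochondria switches on further gene sets. Each set has marker genes that are also raised by the handling of plants. Of the 10 genes, AT1G51850 encodes a leucine-rich repeat receptor kinase, while AT4G37290 and AT2G23270 encode precursors of secreted peptides of the PIP family, which are induced by microbial patterns. AT1G24140 encodes a matrix metalloproteinase of the cell exterior and AT1G78410 a VQ motif protein. AT3G28580 encodes an AAA-type ATPase and is used as a marker of singlet oxygen from chloroplasts, and AT2G41730 belongs to the genes raised when mitochondria fail. SAL2 encodes a phosphatase of the family that degrades phosphonucleotides and inositol phosphates. The biochemical roles of ZCF37 and AT1G19020 are not established. The genes lie on all 5 nuclear chromosomes, 5 of them on chromosome 1, and no 2 of them are neighbours in the RefSeq gene order.

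Both secreted peptide genes were near the bottom of the scale on 2 of the 3 Ws arrays of each treatment. AT4G37290 had signals of 11.5, 116 and 7.8 on the Ws mock arrays numbered 1, 2 and 3, and of 104, 216 and 108 on the rop10-1 mock arrays. With ABA it had 9.8, 114 and 5.7 in Ws and 203, 130 and 376 in rop10-1. Under ABA the lowest rop10-1 array thus lay above the highest Ws array, whereas in mock the Ws array numbered 2 reached into the rop10-1 range. AT2G23270 had 11.8, 82.4 and 7.7 in Ws mock and 76.7, 229 and 60.5 in rop10-1 mock. With ABA it had 29.1, 95.1 and 32.4 in Ws against 255, 124 and 247 in rop10-1. It showed the same arrangement, with the groups apart under ABA and overlapping in mock through the Ws array numbered 2. The log2 difference between group means, averaged over treatments, was 2.13 (SE 0.52) for AT4G37290 and 1.68 (SE 0.41) for AT2G23270, on the scale log2(signal + 16) used for all differences here. That scale understates differences of weak signals.

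The receptor kinase gene AT1G51850 fitted the description of a raised gene least well. Its mock signals were 398, 135 and 141 in Ws and 322, 135 and 205 in rop10-1, so that the 2 genotypes overlapped entirely. With ABA the values were 95.9, 55.7 and 49.9 in Ws and 581, 90.5 and 170 in rop10-1, and the rop10-1 array numbered 2 fell short of the highest Ws array. The log2 difference was 0.07 (SE 0.57) in mock and 0.78 (SE 0.40) averaged over treatments, the smallest of the 10.

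Among the intracellular and extracellular effectors, AT1G78410 was close to absent from the Ws arrays numbered 3. This VQ motif gene had signals of 29.6, 182 and 1.5 in Ws mock and 137, 230 and 170 in rop10-1 mock. Under ABA it had 45.1, 93.4 and 1.5 in Ws and 344, 162 and 459 in rop10-1, where the groups did not overlap. The averaged log2 difference was 2.25 (SE 0.56). For the metalloproteinase gene AT1G24140 the genotypes were apart in both treatments. It had 54.8, 70.9 and 9.4 in Ws mock against 87.7, 119 and 85.5 in rop10-1 mock. With ABA the signals were 51.3, 83.2 and 10.7 in Ws against 184, 120 and 249 in rop10-1. The averaged log2 difference was smaller than that of AT1G78410, at 1.42 (SE 0.35). SAL2, the phosphatase gene, also had its groups apart in both treatments and had the smallest relative error of the 10. Its signals were 121, 120 and 71.1 in Ws mock, 149, 177 and 234 in rop10-1 mock, 76.0, 50.4 and 52.5 in Ws ABA and 209, 200.3 and 563 in rop10-1 ABA. The log2 difference was 0.76 (SE 0.34) in mock and 2.02 (SE 0.34) under ABA.

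Both markers of organelle stress had their groups apart under ABA but not in mock. AT2G41730 had 257, 1695 and 117 in Ws mock and 1013, 3710 and 1333 in rop10-1 mock. Under ABA it had 164, 1253 and 89.4 in Ws and 1936, 2053 and 4019 in rop10-1. The Ws arrays numbered 2 thus carried several times the signal of the other Ws arrays, and reached into the rop10-1 range in mock. At 2.63 (SE 0.69) it had the largest averaged log2 difference of the 10. Its probe set is of a type (suffix x) whose probes can also match other transcripts, so its level may hold signal of other genes. AT3G28580, the singlet oxygen marker, had 127, 280 and 40.2 in Ws mock and 112, 272 and 190 in rop10-1 mock. With ABA it had 83.7, 95.7 and 27.6 in Ws and 303, 418 and 612 in rop10-1. In mock its arrays numbered 1 and 2 were level between the genotypes, and the log2 difference was 0.56 (SE 0.54) there and 2.49 (SE 0.54) under ABA.

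The 2 genes of unestablished role had their groups apart under ABA and overlapping in mock, like the peptide genes. ZCF37 had 20.4, 410 and 16.2 in Ws mock and 264, 426 and 309 in rop10-1 mock. With ABA it had 11.8, 174 and 10.9 in Ws and 347, 353 and 617 in rop10-1. The Ws mock array numbered 2 was thus close to its rop10-1 partner, whereas the Ws arrays numbered 1 and 3 were near the bottom of the scale. AT1G19020 had 308, 572 and 188 in Ws mock and 527, 1525 and 552 in rop10-1 mock, with overlap. Under ABA it had 221, 488 and 81.1 in Ws and 1220, 609 and 1506 in rop10-1, without overlap. The averaged log2 differences were 2.59 (SE 0.64) for ZCF37 and 1.71 (SE 0.42) for AT1G19020.

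**Figure D1:**
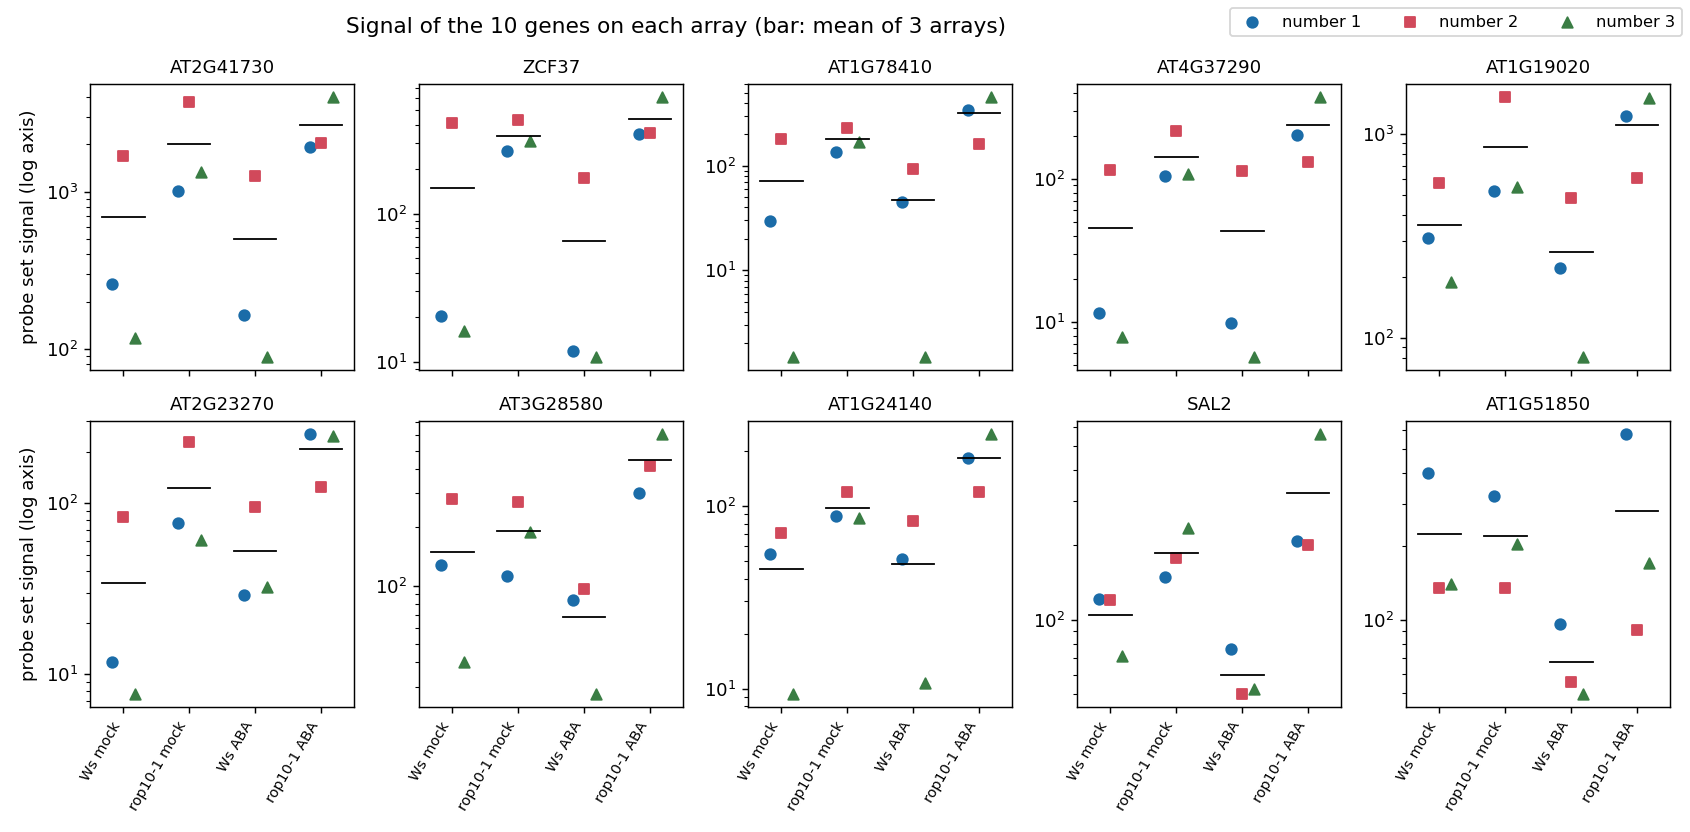
Probe set signal (log axis) of the 10 genes on each of the 12 arrays, by group, with the replicate number as colour and shape and the mean of 3 arrays as a bar. In 8 of the 10 panels the array numbered 2 is the highest of both Ws groups, for example 410 and 174 for ZCF37.

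Taken as a group, the 10 genes had a median log2 difference of 1.39 in mock and 2.35 under ABA, against 0.0002 and -0.002 over all 15923 probe sets tested. The rop10-1 arrays lay above the Ws arrays without overlap for 2 of the 10 genes in mock, as did 4.9% of all tested probe sets, and for 9 of the 10 under ABA, as did 5.32%. Between arrays of the same number, rop10-1 was higher in 6 of 6 pairs for 8 genes, as for 5.15% of all tested probe sets. It was higher in 4 of 6 pairs for AT3G28580 and AT1G51850.

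The size of the genotype difference varied between the replicate numbers, each of which holds a single array per group. A dependence on the number was not tested, and genes that move together are no replicates of it. On the arrays numbered 2 the median over the 10 genes was 0.57 in mock and 0.64 under ABA, and 3 and 2 genes were at least 2-fold higher in rop10-1 on the log2(signal + 16) scale, as were 0.823% and 0.634% of all tested probe sets. For number 1 the medians were 1.24 and 2.49, with 5 and 10 genes at least 2-fold higher, against 0.458% and 1.11% of all. For number 3 they were 1.94 and 3.91, with 9 and 10 genes, against 0.848% and 2.98% of all. For 8 of the 10 genes the difference averaged over treatments was smallest on the arrays numbered 2, the exceptions being SAL2 and AT3G28580, where it was smallest for number 1. AT2G41730 showed the range most plainly, with log2 differences of 1.12 in mock and 0.71 under ABA for number 2, and of 3.34 and 5.26 for number 3. Over all tested probe sets the median difference per pair stayed between -0.046 and 0.038. Without the 4 arrays numbered 2, a setting chosen after seeing the data, the median over the genes averaged over treatments was 2.13 in place of 1.70.

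**Figure D2:**
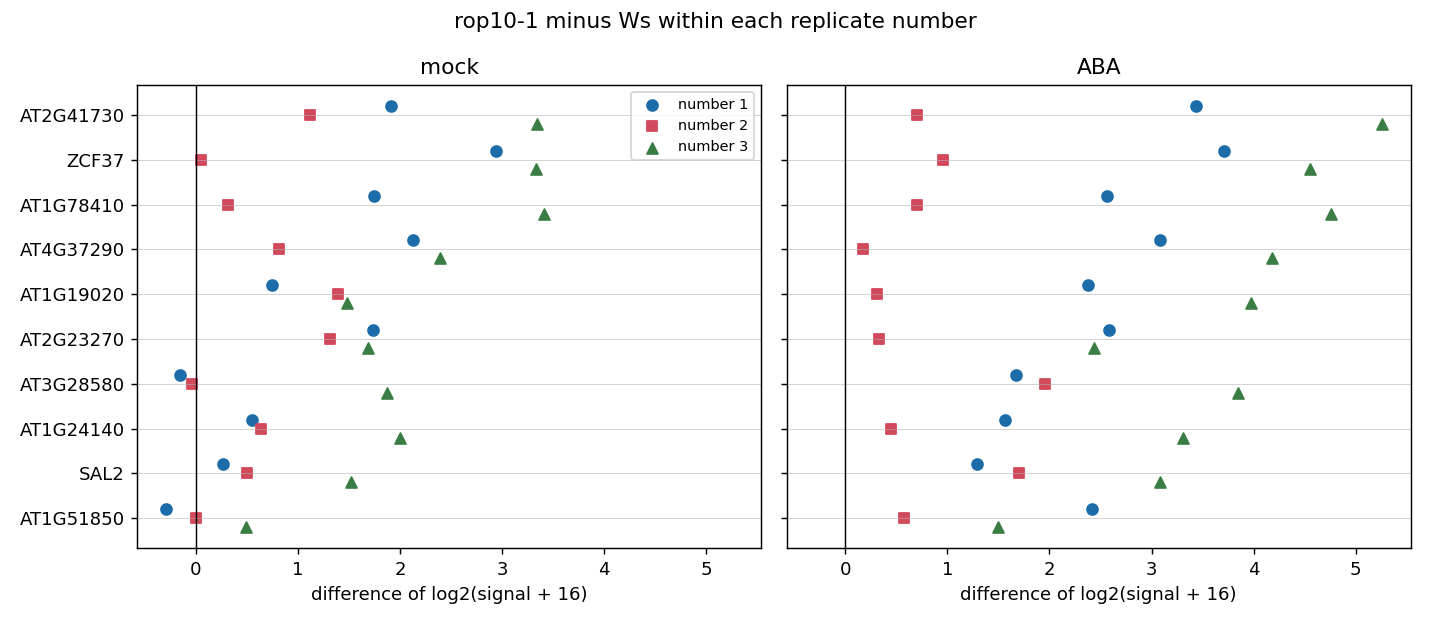
Difference of log2(signal + 16) between the rop10-1 and the Ws array of the same replicate number, for the 10 genes (rows), in mock (left) and with ABA (right). The squares of number 2 lie nearest to 0 for most genes, with medians of 0.57 and 0.64, and the triangles of number 3 farthest, with medians of 1.94 and 3.91.

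The smaller difference for number 2 went with high Ws signals in both treatments and, under ABA, also with low rop10-1 signals. AT2G41730, ZCF37, AT1G78410, AT4G37290, AT1G19020, AT2G23270, AT3G28580 and AT1G24140 each had their highest Ws signal on the array numbered 2, both in mock and with ABA. Of all tested probe sets, 27.5% were highest on that array in Ws mock and 28.1% in Ws ABA. The same 8 genes were highest on the array numbered 2 in rop10-1 mock, as were 35.8% of all. In rop10-1 ABA none of the 10 was highest there and 7 had their lowest value on it, as did 33.1% of all, while 8 were highest on number 3, as were 27.1% of all. Low Ws signals were found on number 3, where 9 genes had their lowest value in mock and 8 with ABA, as did 37.1% and 29.9% of all. AT1G51850 and SAL2 were instead highest on number 1 in both Ws groups, SAL2 in mock by a margin of 121.3 to 120.1. The test of differences between the 3 numbers, which did not enter the choice of the genes, called AT1G51850 (limma moderated F, adjusted p = 0.0032) and AT2G41730 (adjusted p = 0.0421). These are 2 of the 10 genes, against 20% of all tested probe sets, so in this fit the genes were not called more often than the array at large. The test looks for a shift shared by all 4 groups. It is therefore weak where number 2 is high in the other groups and low in rop10-1 ABA. AT1G51850 remained called in each of the 12 fits with 1 array left out, while AT2G41730 was lost in 10 of them. The count rose to 7 of 10 without the rop10-1 ABA array numbered 2, where 18.2% of all tested probe sets were called, and likewise to 7 without the one numbered 3, where 19.1% were.

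Lists of genes of low oxygen and of touch or wounding also differed between these arrays, and their part in the result was not tested. Of the low oxygen list 3 of 15 genes were measured, none at 0. Their summed signal was 676 to 2142 in Ws mock, 1596 to 3626 in rop10-1 mock, 466 to 1209 in Ws ABA and 493 to 1898 in rop10-1 ABA. The lowest sum of each group was on the array numbered 2, and the highest in both rop10-1 groups on the array numbered 3. AT3G10040, a transcription factor gene induced by low oxygen, had signals of 402, 36.5 and 203 in Ws mock and 49.8, 8.0 and 1051 in rop10-1 mock. AT1G19530, also on the list, had 1165, 604 and 1305 in Ws mock and 1465, 1503 and 1064 in rop10-1 mock. With ABA it had 338, 371 and 275 in Ws and 661, 361 and 396 in rop10-1. In rop10-1 mock and Ws ABA it was thus highest on number 2, unlike the sums. It was also lower with ABA (-1.52 averaged over genotypes, limma adjusted p = 0.00029). Of the touch and wounding list 2 of 19 genes were measured, the zinc finger gene STZ and the calmodulin-like gene CML38, none at 0. Their summed signal was 700.2 to 2644 in Ws mock, 977 to 3550 in rop10-1 mock, 323 to 2026 in Ws ABA and 1092 to 2071 in rop10-1 ABA, and was highest on the array numbered 2 in all 4 groups. STZ alone had 572, 2292 and 508 in Ws mock and 388, 1755 and 264 in Ws ABA. CML38, weaker than STZ on every array, had 131, 352 and 192 in Ws mock and 200.1, 487 and 464 in rop10-1 mock. With ABA CML38 had 166, 271 and 58.9 in Ws and 92.0, 273 and 319 in rop10-1, there highest on number 3. The log2 ratio of 3' to 5' probe sets of the glyceraldehyde phosphate dehydrogenase control, a measure of RNA integrity, was -0.53 and -0.57 on the Ws arrays numbered 2, -0.53 on the rop10-1 ABA array numbered 3, and between -0.50 and -0.27 on the others. The same ratio ran from 2.05 to 2.63 for actin, highest on the Ws mock array numbered 2, and for ubiquitin it was lowest on the Ws ABA array numbered 1, at 0.64, and highest on the Ws mock array numbered 3. The part of these ratios in the result was not tested.

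No change with ABA shared by the 10 genes was found, although weak Ws signals limit the test. Averaged over both genotypes, none of the 10 passed the test (limma, adjusted p from 0.261 to 0.974), and none had an unadjusted p under 0.05. Of all tested probe sets 15.5% were called and 29.2% had such a p. The comparison is loose, since 5 of the 10 passed the low filter only through rop10-1. Their weak Ws signals leave little room for a fall. The differences of ABA against mock ran from -0.69 for AT1G51850 (SE 0.40, adjusted p = 0.284) to 0.74 for AT2G23270 (SE 0.41, adjusted p = 0.261), with a median of 0.13, and standard errors from 0.24 to 0.69 leave room for changes of that size. With the replicate number as a block limma called AT1G51850 as lower with ABA (-0.69, SE 0.19, adjusted p = 0.0174), where 28% of all tested probe sets were called. In the same limma fit AT2G23270 had an unadjusted p of 0.042 and an adjusted p of 0.114. For AT1G51850 the mean difference was -1.40 in Ws and 0.03 in rop10-1, both given without a test. The rop10-1 value hides a spread, as the pairs numbered 1, 2 and 3 had 0.82, -0.50 and -0.24. With the block AT1G51850 was called with any 1 array left out except the rop10-1 mock array numbered 3. All 5 measured genes of the list of ABA-induced markers rose on the same arrays, by a median of 2.05 and by as much as 5.70 for the late embryogenesis abundant protein gene LEA4-5 (limma adjusted p = 4.3e-09).

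Within each genotype the values pointed apart, but those differences share arrays with the genotype contrast and are given without a test. In Ws 8 of the 10 genes had a lower mean with ABA, by a median of -0.52 over the 10, the exceptions being AT2G23270 and AT1G24140. In rop10-1 all 10 had a higher mean with ABA, by a median of 0.61, though by as little as 0.03 for AT1G51850. Over all tested probe sets the medians were -0.044 in Ws and -0.051 in rop10-1. Between rop10-1 arrays of the same number, 10 genes were higher with ABA for number 1 (median 0.93) and 9 for number 3 (median 1.40), but 7 were lower for number 2 (median -0.49). In Ws the medians were -0.42, -0.64 and -0.30 for the numbers 1, 2 and 3. The ABA difference was larger in rop10-1 than in Ws for each of the 10, by 0.20 for AT2G23270 to 1.94 for AT3G28580. The median was 0.99, against 0.0003 over all tested probe sets. AT3G28580 and SAL2 were lower with ABA in all 3 Ws pairs and higher in all 3 rop10-1 pairs. The shares of all tested probe sets with these directions were not counted.

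**Figure D3:**
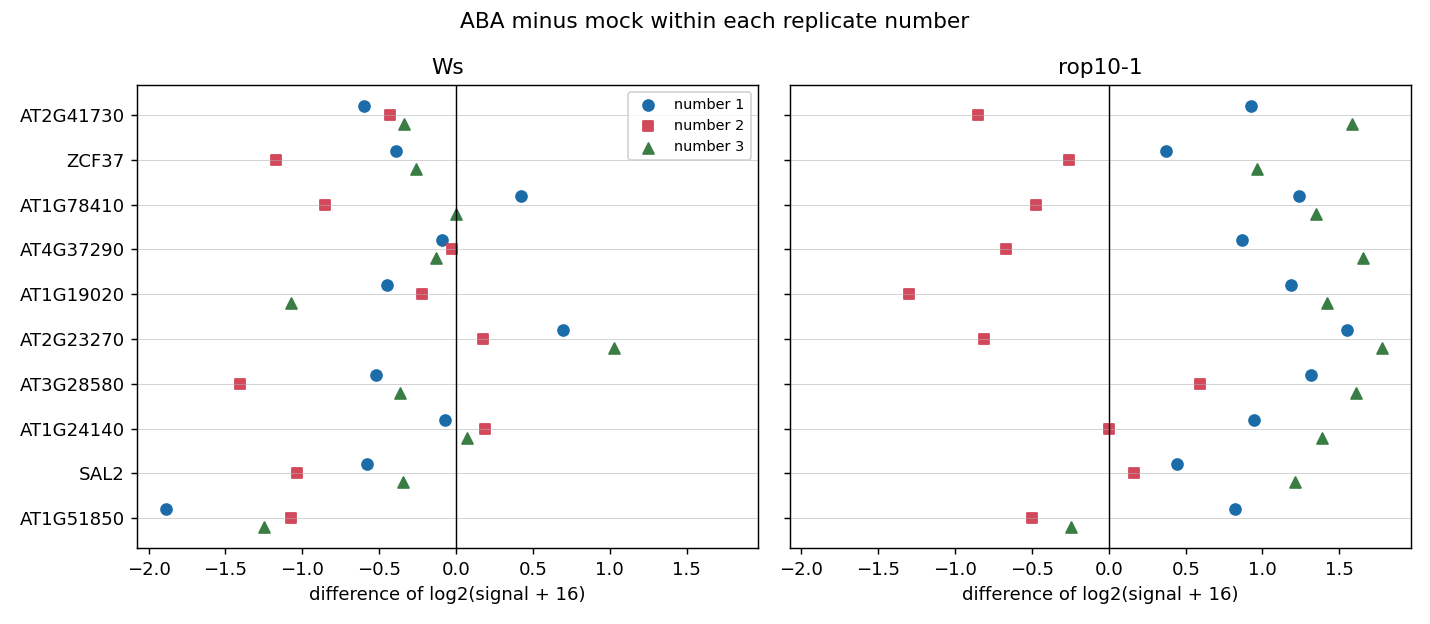
Difference of log2(signal + 16) between the ABA and the mock array of the same replicate number, for the 10 genes (rows), in Ws (left) and rop10-1 (right). In rop10-1 the points of numbers 1 and 3 lie mostly right of 0, with medians of 0.93 and 1.40, and those of number 2 mostly left, with a median of -0.49.

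Some relatives of the 10 genes shared their pattern and others did not. AT4G28460, the precursor gene of another PIP peptide, had 6.5, 92.0 and 51.5 in Ws mock and 101, 282 and 62.8 in rop10-1 mock. With ABA it had 44.3, 56.0 and 35.4 in Ws and 108, 107 and 191 in rop10-1, without overlap. It was higher in rop10-1 in every pair of the same number, as were 5.15% of all tested probe sets. Its difference averaged over treatments was 1.31 (SE 0.39). It missed the threshold (limma adjusted p = 0.33, 0.0645 with the replicate block). Next to SAL2 on chromosome 5 lies its relative AT5G63990, which had a difference of 0.05 (SE 0.17, adjusted p = 0.947), while SAL2 stood at 1.39. The other relatives of SAL2 that were measured, AT5G09290 and HL, had 0.09 (SE 0.14) and -0.27 (SE 0.14). The metalloproteinase genes AT1G59970 and MMP had 0.06 (SE 0.11) and 0.29 (SE 0.16), against 1.42 for AT1G24140. Of the receptor kinase genes close to AT1G51850 on chromosome 1, AT1G51890 had 0.59 (SE 0.18), AT1G51790 0.34 (SE 0.40), AT1G51820 0.27 (SE 0.32), AT1G51830 0.22 (SE 0.18) and AT1G51805 0.02 (SE 0.18). The VQ gene AT2G22880 had 1.17 (SE 0.53) and the other VQ genes AT5G65170, AT4G15120 and AT1G80450 had 0.18, -0.03 and -0.05. The AAA-type ATPase gene AT2G18190 had 0.63 (SE 0.24) and was also higher in rop10-1 in every pair of the same number. AT1G51890 had its groups apart under ABA, where the highest Ws signal was 136 and the lowest rop10-1 signal 144. None of these relatives was called between the genotypes in the average over treatments (limma, with or without the block), and AT4G28460, AT1G51890, AT2G18190 and AT2G22880 had an unadjusted p under 0.05. For ABA against mock, limma called 3 of the 16 relatives, MMP (0.60, adjusted p = 0.0256), AT4G15120 (0.66, adjusted p = 0.00219) and AT1G80450 (0.74, adjusted p = 0.039), all higher with ABA, where 15.5% of all tested probe sets were called. With the block these 3 remained called and 4 were added, so that 7 of 16 were called against 28% of all tested probe sets. Of the added ones, AT1G59970 was higher with ABA (0.33, limma adjusted p = 0.0411 with the block). The receptor kinase genes AT1G51820 (-0.82), AT1G51790 (-0.59) and AT1G51805 (-0.49) were lower with ABA in the average over genotypes, like AT1G51850. Their limma adjusted p were 0.0176, 0.0264 and 0.0141 with the block and 0.114, 0.357 and 0.0852 without it. The mean of AT1G51820 went from 131 in mock to 37.3 with ABA in Ws, and from 98.5 to 99.8 in rop10-1. That of AT1G51790 went from 314 to 150 in Ws and from 288 to 269 in rop10-1. Both rop10-1 means were held up by number 1, while numbers 2 and 3 were lower with ABA. On the rop10-1 arrays numbered 1, 2 and 3 AT1G51820 went from 139, 60.5 and 95.7 to 186, 30.4 and 83.3. AT1G51790 went from 459, 190 and 215 to 495, 141 and 169 there. AT1G51805 was lower with ABA in both genotypes, going from 287 to 186 in Ws and from 270 to 192 in rop10-1.

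Beside the 10, 6 lists of stress genes were examined, and 21 genes on them other than the 10 were measured, that is, had a tested probe set of their own. Averaged over treatments, 19 of the 21 had a higher mean in rop10-1 and their median log2 difference was 0.59, against -0.001 over all tested probe sets. None was called by limma, where 0.0377% of all tested probe sets were called, and 8 of the 21 had an unadjusted p under 0.05, against 9.57% of all. With the replicate number as a block 5 were called, all higher in rop10-1, where 1.43% of all tested probe sets were called and 0.904% called as higher. The lists were drawn up with earlier results of these arrays known, so the counts are no independent evidence of a direction.

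The mitochondrial dysfunction list held 3 of the 5 calls, out of 6 genes other than AT2G41730. AT2G04050, a transporter gene of the MATE family, had signals of 42.4, 482 and 67.8 in Ws mock and 162, 722 and 357 in rop10-1 mock. Its log2 difference averaged over treatments was 2.09 (SE 0.64, limma adjusted p = 0.35, 0.0259 with the block), with 1.44 in mock and 2.75 under ABA. Its relative AT2G04070 had 0.98 (limma adjusted p = 0.209, 0.0346 with the block), with 0.31 in mock and 1.66 under ABA. AT2G21640, a marker of mitochondrial oxidative stress, had 1.17 (limma adjusted p = 0.551, 0.0382 with the block), with 1.03 in mock and 1.32 under ABA. AT2G21640 had 171, 1385 and 325 in Ws mock and 378, 1754 and 1067 in rop10-1 mock, so that in mock it too was highest on the number 2 array of both genotypes. AT5G43450 had 0.74 (SE 0.29), and the remaining genes of the list had 0.27 and 0.28.

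The list of early immune genes held the other 2 calls, out of 9 genes. AT1G26380, an enzyme gene of the FAD-linked oxidase type that is induced by microbial patterns, had 104, 369 and 76.9 in Ws mock and 250.4, 661 and 385 in rop10-1 mock. The log2 difference averaged over treatments was 1.94 (SE 0.44, limma adjusted p = 0.277, 0.038 with the block). That of its relative AT1G26420 was 1.80 (SE 0.38, limma adjusted p = 0.249, 0.0346 with the block). In mock and under ABA the differences were 1.36 and 2.52 for AT1G26380 and 0.83 and 2.77 for AT1G26420. AT4G28460 and AT1G51890, given above, were next in size, and the other 5 lay between -0.03 and 0.45. AT1G57630, the single other gene measured on the singlet oxygen list, had 0.74 (SE 0.93), and the touch and wounding genes STZ and CML38 had 0.71 (SE 0.55) and 0.60 (SE 0.39). The low oxygen genes AT1G19530, AT4G10270 and AT3G10040 had 0.45 (SE 0.20), 0.15 (SE 0.85) and -0.37 (SE 0.97). None of the 11 genes on the salicylic acid list was paired with a probe set of its own by the probe table used here, which names a single gene for 8722 of the 15923 tested probe sets, so that list was not analysed here. The count of 5 with the block changed with single arrays. It fell to none without the Ws mock array numbered 1 or 3, any 1 rop10-1 mock array, the Ws ABA array numbered 3 or the rop10-1 ABA array numbered 1 or 3, to 2 without Ws ABA 1 and to 3 without Ws mock 2, and rose to 6 without Ws ABA 2 and to 10 without rop10-1 ABA 2.

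**Figure D4:**
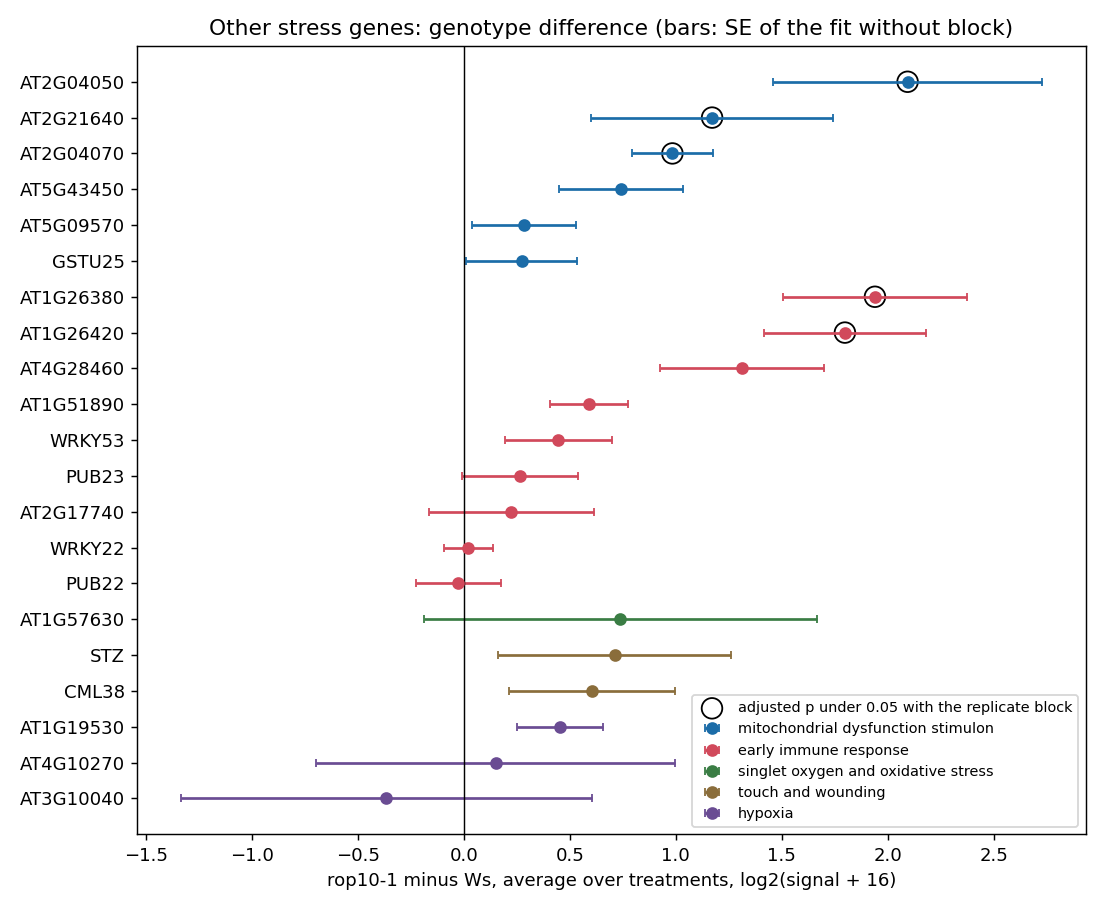
Log2 difference between rop10-1 and Ws averaged over treatments for the 21 other stress genes measured, grouped by list, with the standard error of the fit without the replicate block. The 5 circled genes, AT2G04050, AT2G21640, AT2G04070, AT1G26380 and AT1G26420, had an adjusted p under 0.05 only with the block.

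Over the arrays 9 of the 10 genes followed one another closely. Pearson's r of each with the mean of the other standardized profiles over the 12 arrays ran from 0.816 for SAL2 to 0.974 for AT1G78410, and was 0.335 for AT1G51850. Since the genes were chosen for the same genotype difference, part of this likeness comes from the choice. Among 8712 other probe sets with a single gene, the 8 most like the mean profile were B120, AT2G32030, AT5G52750, AT2G32020, AT1G26380, AT1G55450, BZIP60 and AT1G26420, with r from 0.929 to 0.954. After subtraction of each group's mean, r over the 12 arrays was 0.807 to 0.944 for them, highest for BZIP60. As they were picked for likeness on the same arrays, this r is no separate check. B120 encodes a receptor kinase of the S-domain type, BZIP60 a transcription factor of endoplasmic reticulum stress, and AT2G32020 and AT2G32030 encode acetyltransferases of the GNAT type. AT2G32020 had 122, 582 and 122 in Ws mock and 417, 1134 and 433 in rop10-1 mock, with the number 2 array highest in both. BZIP60 had 948, 1599 and 481 in Ws mock and 1221, 1606 and 1145 in rop10-1 mock. Each of the 8 was higher in rop10-1 in 6 of 6 pairs of the same number, a feature that likeness to the 10 genes favours.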

How the data were processed

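The deposited table gives 1 intensity per probe set and array, on a linear scale. The submitters' processing notes name GCOS 1.1.1, without settings. After removal of the extreme 2%, array means were 500.04 to 500.05, so the deposited intensity was not rescaled. No 2 arrays held identical values. Groups came from the sample titles. Gene names came from GEO's annotation of the array, which may be outdated, and gene order from RefSeq (TAIR10.1). Sequences were not used here.

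The log2(intensity + 16) values were fitted in limma 3.58.1 (R 4.3.3) with a mean for each group and a variance trend on intensity. Tests were two-sided, adjusted by Benjamini-Hochberg over 15923 probe sets and called at an adjusted p under 0.05. The filter removed controls and the 30% of probe sets lowest in mean log2 value. All 10 genes passed it, but on the Ws arrays alone ZCF37, AT1G78410, AT4G37290, AT2G23270 and AT1G24140 would not have, so 5 of 10 passed through rop10-1. The genes and lists were chosen with earlier results of these data known. Named besides the 10 were, per list, up to 4 genes with the largest genotype difference and any gene called, all measured relatives, and the 8 probe sets most like the 10. LHCB4.1 was named outside this rule, as a check of the tissue, after its values were seen.

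Whether equal replicate numbers mark paired samples was checked on the deviations from group means. Between groups, same-numbered arrays correlated at 0.215 to 0.711 (18 pairs) and others at -0.475 to 0.11, and all 12 arrays were closest to their own number. The numbers thus pair the samples by this check, although no source used here states what they share. The main fit has no replicate block, so it leaves this pairing out, and all standard errors are from it unless stated. Values with the block are printed where they change a call. With the block the standard error of the averaged genotype difference was smaller for each of the 10 genes, for AT2G41730 0.46 in place of 0.69. The fit was tested on simulated data. Alternatives changed the pseudocount, filter, normalization, trend, array weights, replicate block, or left out an array.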

Additional observations from a re-analysis of the deposited data

Results flagged for a closer look

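For AT3G28580 and SAL2 the direction of the ABA difference was opposite in the 2 genotypes on every pair of arrays with the same number. ABA against mock was lower in all 3 Ws pairs and higher in all 3 rop10-1 pairs. For AT3G28580 the rop10-1 difference exceeded that in Ws by 1.94 on the log2 scale, and for SAL2 by 1.26. No test of this difference is given and it counts as not tested, since it is the difference of contrasts that chose the genes.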

How the results depend on the processing

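The median genotype difference of the 10 genes kept its sign in all 20 alternatives of each contrast. As the genes were chosen for a higher signal in rop10-1 on these arrays, the kept sign is no support. The median was 0.925 to 1.91 in mock, 1.68 to 2.97 under ABA and 1.22 to 2.17 in the average. With 1 array left out it was 0.925 to 1.91 in mock, 1.95 to 2.77 under ABA and 1.45 to 1.96 in the average. With the lowest 50% of probe sets left out, 2 of the 10 genes stayed in the test, and the 2.17 is the median of these 2 alone. The count of ABA calls among the genes was 0, and 0 in each fit without 1 array. It was 1 with the replicate block (0 to 3 with an array left out as well), 1 without the arrays numbered 2 and 2 without them and with the block. The count of genes differing between numbers was 2, and 1 without a low filter, with the lowest 50% left out or without the intensity trend, and it ran from 1 to 7 with 1 array left out. The stress list calls were 0, from 0 to 1 with 1 array left out, 5 with the block (0 to 10 with an array left out as well, of which 6 without the Ws ABA array numbered 2), 2 without the arrays numbered 2 and 8 without them and with the block. The cause was not tested. Signals were weak in Ws, where the means of 5 genes lay in the lowest 30% of the probe sets.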
